A study of Mus musculus with 13 samples.

Results

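The genes described here are 34 mouse genes of the unfolded protein response and of protein folding in the endoplasmic reticulum (ER), taken from a list of symbols that applies no threshold to measured values. All 34 were measured, among 18194 genes with a row on the array, and 23 of them are covered by more than 1 probe set. Each gene is represented by its brightest probe set, averaged over all arrays. The study hybridised total RNA of CD8+ T cells from mice on a C57Bl/6 background to 13 expression arrays. Every animal carried the P14 transgenic T cell receptor, and the genotypes compared were wild type and BATF-/- (written Batf-/- below), the second lacking the transcription factor Batf. Naive cells at day 0 gave 2 wild-type and 3 Batf-/- arrays. Day 3 effector cells gave 4 arrays per genotype, after culture on plate-bound anti-CD3 and anti-CD28 with recombinant human IL-2 at 100 U/ml. Cells were isolated by magnetic negative selection for CD8, with no later purification named in the labels, and the animals' age is not given. Whether the arrays of 1 group trace back to different mice or cultures is not stated in the labels, so p-values measure the spread between arrays, which may be technical. Each stimulated group differs from its naive group in culture as well as in receptor engagement.

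The unfolded protein response adjusts the folding capacity of the ER to the load of proteins entering it. As background, it has a sensor for each of 3 branches: Ire1 alpha, encoded by Ern1, splices the messenger RNA of the transcription factor Xbp1; Atf6 is cleaved to a transcription factor in the Golgi; and the kinase Perk, encoded by Eif2ak3, raises translation of Atf4 by phosphorylating eIF2 alpha. Xbp1 and Atf6 switch on ER chaperones and degradation factors, often through the ER stress response element (ERSE), whereas Atf4 switches on Ddit3 (CHOP), Trib3, Chac1 and genes of amino acid supply, a programme that other eIF2 alpha kinases also use. T cells enlarge their secretory pathway when they become effector cells, and Xbp1 activity is best known from plasma cells and other secretory cells. Splicing of Xbp1, cleavage of Atf6 and phosphorylation cannot be read from these arrays, which give total messenger levels only.

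The promoters of the members are shown first, because the ERSE is an element that several of the folding genes share. RefSeq promoter sequence of assembly GRCm38.p6 was held for 29 of the 34 genes, and the 250 bases before each start were searched on both strands. The ERSE, the block CCAAT followed after any 9 bases by the block CCACG, was found in 8 members. It is in 0.13% of all 27025 genes searched and in 0.113% of all 32851 promoters. The members were listed as genes of this response, which often acts through the ERSE, so the count describes them and tests nothing. The ERSE stood in Hspa5, Dnajc3, Hsp90b1, Calr, Canx, Pdia6, Creld2 and Syvn1, and Hsp90b1 held 2 copies. The related ERSE-II, ATTGG and CCACG with any 1 base between them, is present in 0.0304% of promoters and in 1 member, Herpud1. The core of the element that Atf4 and C/EBP proteins bind together, TGATGNAA, is present in 3.45% of promoters and in 2 members, Herpud1 and Chac1. Capitals mark the match in the windows below, written 5′ to 3′ on the gene's strand. The search fixed the outer blocks and left the spacer open, and a match describes letters and not a bound site.
Hspa5, chr2:34772005-34772063, plus strand: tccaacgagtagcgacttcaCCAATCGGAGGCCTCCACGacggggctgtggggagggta
Dnajc3, chr14:118937807-118937865, plus strand: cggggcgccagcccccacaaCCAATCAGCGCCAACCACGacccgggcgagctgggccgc
Syvn1, chr19:6046512-6046570, plus strand: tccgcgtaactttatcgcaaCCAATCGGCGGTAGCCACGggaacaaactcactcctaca
Canx, chr11:50325780-50325838, minus strand: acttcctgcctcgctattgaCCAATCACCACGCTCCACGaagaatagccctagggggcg
Hsp90b1, chr10:86705618-86705676, minus strand: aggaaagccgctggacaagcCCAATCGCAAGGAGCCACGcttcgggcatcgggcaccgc
Calr, chr8:84847055-84847113, minus strand: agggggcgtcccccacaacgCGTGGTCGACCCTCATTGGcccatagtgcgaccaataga
Herpud1 (ERSE-II), chr8:94386357-94386407, plus strand: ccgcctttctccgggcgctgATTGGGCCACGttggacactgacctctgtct
Chac1 (Atf4 and C/EBP core), chr2:119351029-119351076, plus strand: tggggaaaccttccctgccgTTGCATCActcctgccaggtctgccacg
In Calr and Chac1 the motif lies on the strand opposite to the gene.

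Other motifs were searched in the same way. The core of the unfolded protein response element, TGACGTGG, is in 0.563% of promoters and in 1 member, Sec24d. Batf binds as a dimer with Jun proteins at AP-1 sites, often beside an IRF site. The AP-1 site, TGANTCA, is in 6.75% of promoters and in 4 members, Hspa5, Sel1l, Sec61b and Ddit3. The composites of AP-1 and IRF sites, TGANTCA followed after any 4 bases by GAAA in 0.0974% and GAAA directly before TGANTCA in 0.1% of promoters, were found in 0 of the 29 members in this window; sites farther away were not searched.

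The arrays bore the genotype labels. Batf had log2 intensities of 8.63 to 9.36 on the 6 wild-type arrays and of 5.56 to 6.77 on the 7 Batf-/- arrays, the highest of the latter being day 3 replicate 1. The 5 CD8 T cell markers (Cd8a, Cd8b1 and 3 CD3 chains) had summed linear intensities of 29349 to 31527 in wild-type naive, 22856 to 31209 in Batf-/- naive, 25999 to 27183 in wild-type day 3 and 24658 to 26947 in Batf-/- day 3 arrays. RNA of other cells was present in the naive arrays. The 5 plasma cell markers (Jchain, Mzb1, Tnfrsf17, Sdc1 and Derl3) summed to 6982 to 8057 in wild-type naive and 9313 to 11752 in Batf-/- naive arrays, against 178 to 194 and 187 to 216 at day 3. The 9 B cell markers measured summed to 1519 to 2416, 2683 to 4329, 340 to 406 and 364 to 385 in the same order of groups. Most of the plasma cell sum came from Jchain and Mzb1, at mean log2 intensities of 12.59 and 10.17 in wild-type naive arrays. Sdc1, Tnfrsf17 and Derl3 were at 4.77, 4.23 and 6.31 there, and Sdc1 and Derl3 were at 5.01 and 6.37 in wild-type day 3 arrays. Batf-/- naive replicate 1 stood apart: its neutrophil markers had a mean log2 intensity of 9.12, against 4.95 to 6.29 on the other naive arrays, and its CD8 T cell markers had the lowest mean, 11.77. No marker was listed at 0, since the arrays give an intensity for every probe set. Plasma cells are rich in ER folding genes, and the part of these cells in the results below was not tested. In bulk RNA, fewer cells of a type and less RNA per cell cannot be told apart.

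With stimulation the 34 genes did not move together: 4 of 5 genes of the Atf4 branch, Xbp1 and P4hb rose in both genotypes, whereas 5 of 6 genes of the Hsp70 system of the ER fell in both. Of the 6 genes of ER-associated degradation 3 fell in wild-type and 4 in Batf-/- cells. In wild-type cells 14 members were higher and 11 lower at day 3 than in naive cells and 9 did not pass the test (limma on log2 intensity, adjusted p below 0.05 over all genes). In Batf-/- cells 9 were higher, 15 lower and 10 did not pass. These are 73.5% and 70.6% of the members, and the same test called 45.4% of all genes in wild-type cells (22.4% higher and 23% lower) and 47% in Batf-/- cells (23.8% higher and 23.2% lower). Of the members 0 had a mean within the dimmest 40% of probe set means. Without those dim probe sets the test called 61.5% of genes in wild-type and 62.9% in Batf-/- cells, with 26 and 24 members called. The naive and day 3 arrays did not overlap for 30 members in wild-type cells, 16 higher and 14 lower at day 3, against 58.3% of all genes (30.3% higher and 28% lower). In Batf-/- cells they did not overlap for 21 members, 8 higher and 13 lower, against 48.2% of all genes (25% higher and 23.2% lower). The median change of the members was 0.09 in wild-type and 0.03 in Batf-/- cells on the log2 scale, and that of all genes 0.05 and 0.05. The changes ran from -1.81 to 3.91 and from -1.84 to 3.56. These stimulation contrasts share no arrays between genotypes. Of the 25 members called in wild-type cells, 20 (80%) were called in the same direction in Batf-/- cells, which is 83.3% of the 24 called there, and 0 were called in opposite directions. This overlap was not computed over all genes, so it is not shown to be particular to the members.

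**Figure D1:**
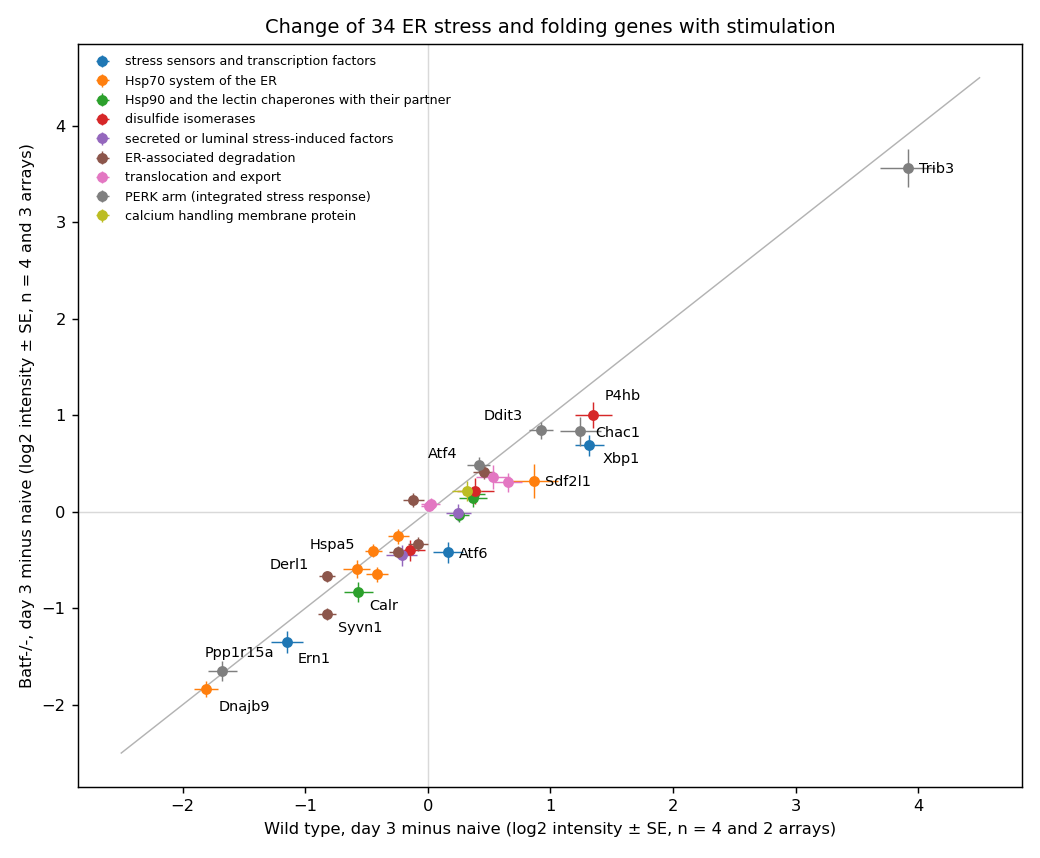
Change from naive to day 3 of each of the 34 genes in wild-type cells (horizontal axis) and in Batf-/- cells (vertical axis), as difference of mean log2 intensity; bars are standard errors, colours are roles and the grey diagonal marks equal change. Trib3 lies alone at the upper end with 3.91 and 3.56, Dnajb9 and Ppp1r15a lie at the lower end, and Xbp1, Atf6 and Sdf2l1 lie below the diagonal.

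Of the sensors and transcription factors, Xbp1 rose and Ern1 fell in both genotypes. Xbp1 had log2 intensities of 10.50 and 10.53 in wild-type naive, 11.67, 11.14 and 11.20 in Batf-/- naive, 11.85, 11.80, 11.92 and 11.74 in wild-type day 3 and 11.90, 12.06, 12.08 and 12.06 in Batf-/- day 3 arrays. Every day 3 array was above every naive array, and the wild-type naive arrays were lowest. The change was 1.32 ± 0.12 (SE, 2.49-fold, n = 4 and 2, limma adjusted p 1.11e-06) in wild-type and 0.69 ± 0.11 (n = 4 and 3, limma adjusted p 0.000122) in Batf-/- cells. The other 3 Xbp1 probe sets were also called higher in both genotypes.

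Ern1, the sensor that splices Xbp1, was at 7.41 and 7.70 in wild-type naive and 8.16, 7.61 and 7.85 in Batf-/- naive arrays, and at 6.31 to 6.50 and 6.37 to 6.62 at day 3. The day 3 arrays were all below the naive arrays. It fell by 1.15 ± 0.13 (SE, limma adjusted p 8.84e-06) in wild-type and by 1.35 ± 0.12 (limma adjusted p 6.15e-07) in Batf-/- cells. This fall belongs to the brightest of 5 Ern1 probe sets. In wild-type cells 1 of the other 4 was also called lower, in Batf-/- cells 0 were, and the changes over all 5 ran from -1.15 to 0.10 in wild-type cells. Atf6, the other sensor in the list, had a change of 0.17 ± 0.12 (limma adjusted p 0.31) in wild-type cells and fell by 0.42 ± 0.11 (limma adjusted p 0.0066) in Batf-/- cells. Over its 3 probe sets the changes ran from 0.17 to 0.48 in wild-type cells, where 1 other was called higher. In Batf-/- cells they ran from -0.42 to -0.08, and 0 others were called lower.

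All but 1 of the 6 genes of the Hsp70 system fell. Hspa5 encodes BiP, the Hsp70 of the ER lumen that binds unfolded chains and holds the stress sensors inactive. Its log2 intensities were 12.04 and 11.96 in wild-type naive, 12.43, 11.98 and 12.12 in Batf-/- naive, 11.38, 11.48, 11.31 and 11.49 in wild-type day 3 and 11.56, 11.63, 11.64 and 11.50 in Batf-/- day 3 arrays. The naive and day 3 values did not overlap in either genotype. Hspa5 fell by 0.58 ± 0.11 (SE, limma adjusted p 0.000475) in wild-type and by 0.59 ± 0.094 (limma adjusted p 0.00014) in Batf-/- cells. Another Hspa5 probe set was called the opposite way in wild-type cells, with a change of 0.25, and a further one fell with it.

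The J-domain protein Dnajb9 (ERdj4), a co-chaperone of BiP that also restrains Ire1, fell most. It was at 9.30 and 9.57 in wild-type naive, 9.50, 9.49 and 9.23 in Batf-/- naive, 7.54 to 7.70 in wild-type day 3 and 7.49 to 7.68 in Batf-/- day 3 arrays. The groups of each genotype were far apart against their spread. The change was -1.81 ± 0.098 (SE, 3.51-fold lower, limma adjusted p 9.05e-09) in wild-type and -1.84 ± 0.086 (limma adjusted p 2.12e-09) in Batf-/- cells. Hyou1, the large Hsp70 that exchanges nucleotide on BiP, changed by -0.42 and -0.65, Dnajb11 (ERdj3) by -0.44 and -0.40, and Dnajc3 (p58IPK) by -0.24 and -0.26 in wild-type and Batf-/- cells. The fall of Dnajc3 in wild-type cells had an adjusted p of 0.0366 and was lost without either wild-type naive array (adjusted p 0.189 and 0.0792) and without wild-type day 3 replicate 1 or 3 (0.0696 and 0.0822).

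Sdf2l1, which works with Dnajb11 to keep clients soluble, was the exception. It rose by 0.87 ± 0.20 (SE, limma adjusted p 0.00286) in wild-type cells, from 8.12 and 8.36 to between 9.04 and 9.14. In Batf-/- cells its change was 0.32 ± 0.18 (limma adjusted p 0.157), with naive arrays between 8.40 and 9.49 and day 3 arrays between 9.27 and 9.34. Without Batf-/- naive replicate 1 it was 0.58 (limma adjusted p 0.00224).

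Among the chaperones for glycoproteins and large clients, Hsp90b1 (Grp94), the membrane lectin Canx (calnexin) and its partner isomerase Pdia3 (ERp57) rose in wild-type cells by 0.37, 0.38 and 0.25, with limma adjusted p of 0.0163, 0.00373 and 0.0187. The soluble lectin Calr (calreticulin), which uses the same partner, fell by 0.57 ± 0.12 (SE, limma adjusted p 0.00155). In Batf-/- cells Calr fell by 0.83 ± 0.11, and Hsp90b1, Canx and Pdia3, with changes of 0.15, 0.18 and -0.03, did not pass. The other Hsp90b1 probe set was called higher there (0.44), and with the mean of both the change was 0.30 (limma adjusted p 0.0351). Canx passed there without Batf-/- naive replicate 1 (0.27, limma adjusted p 0.0059), while another Canx probe set was called lower there (-0.24). Without wild-type naive replicate 1 the change of Hsp90b1 was 0.29 (limma adjusted p 0.143), and without wild-type naive replicate 2 that of Pdia3 was 0.20 (limma adjusted p 0.17).

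The disulfide isomerases differed among themselves. P4hb, the main protein disulfide isomerase, rose from 10.46 and 10.40 to 11.84, 11.85, 11.85 and 11.57 in wild-type cells. In Batf-/- cells it rose from 11.16, 10.42 and 10.68 to 11.74, 11.69, 11.80 and 11.80. Every day 3 array was above every naive array, and Batf-/- naive replicate 1 was the highest naive one. The change was 1.35 ± 0.15 (SE, 2.55-fold, limma adjusted p 7.14e-06) and 1.0 ± 0.13 (limma adjusted p 3.24e-05). Pdia4 (ERp72) had a change of -0.14 in wild-type cells (limma adjusted p 0.375) and fell by 0.40 in Batf-/- cells (0.00804). Its other probe set, in the dim range, changed by 0.20 there, and with the mean of both the change was -0.10 (limma adjusted p 0.113). Pdia6 passed in neither genotype, with 0.39 (limma adjusted p 0.0503) and 0.21 (0.209). Leaving out any 1 of the 3 Batf-/- naive arrays brought its wild-type change past the threshold (adjusted p 0.00046 to 0.0491), since those arrays share the estimate of the spread, and without Batf-/- naive replicate 1 its Batf-/- change was 0.36 (adjusted p 0.0347). The other Pdia6 probe set was called lower in Batf-/- cells (-0.32).

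Of the secreted or luminal stress-induced factors, Manf had changes of 0.25 in wild-type (limma adjusted p 0.0708) and -0.01 in Batf-/- cells. Its wild-type change passed without Batf-/- naive replicate 1 (limma adjusted p 0.00718) or 2 (0.028). Creld2, an ER factor with isomerase activity, had a change of -0.21 in wild-type cells (limma adjusted p 0.198; 0.0203 without Batf-/- naive replicate 2) and fell by 0.45 in Batf-/- cells (0.00435).

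ER-associated degradation sends misfolded proteins back to the cytosol for the proteasome. Of its 6 genes 3 fell, 1 rose and 2 did not pass in wild-type cells, and 4 fell, 1 rose and 1 did not pass in Batf-/- cells. Over all genes 23% fell and 22.4% rose in wild-type cells, and 23.2% fell and 23.8% rose in Batf-/- cells. Syvn1 encodes Hrd1, the central ubiquitin ligase of this degradation. It was at 8.64 and 8.69 in wild-type naive, 8.92, 8.67 and 8.70 in Batf-/- naive, 7.83 to 7.86 in wild-type day 3 and 7.68 to 7.73 in Batf-/- day 3 arrays. Naive and day 3 arrays did not overlap. Syvn1 fell by 0.82 ± 0.072 (SE, limma adjusted p 6.92e-07) in wild-type and by 1.06 ± 0.063 (limma adjusted p 1.96e-08) in Batf-/- cells. Sel1l, the partner that holds Hrd1 in its complex, changed by -0.24 and -0.42, and Derl1, a channel component, by -0.82 and -0.67, all 4 passing the test. Edem1, a lectin that extracts misfolded glycoproteins from the folding cycle, rose by 0.46 and 0.41. Herpud1, a scaffold of the Hrd1 complex, had a change of -0.08 in wild-type cells and fell by 0.33 in Batf-/- cells (limma adjusted p 0.00183). Derl2 passed in neither genotype (-0.12 and 0.13), and in Batf-/- cells it was 0.22 (limma adjusted p 0.0144) without Batf-/- naive replicate 1. Another Derl1 probe set was called the opposite way in both genotypes (0.51 and 0.37). The 5 Sel1l probe sets ran from -0.24 to 0.29 in wild-type cells, where their mean gave -0.03 (limma adjusted p 0.792) and the change without wild-type naive replicate 2 was -0.18 (adjusted p 0.184). All 5 were called lower in Batf-/- cells.

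The genes of the translocation channel did not pass, and those of its partners and of export rose. Sec61a1 and Sec61b, subunits of the channel through which new chains enter the ER, had changes of 0.02 and 0.01 in wild-type and 0.08 and 0.06 in Batf-/- cells. Another Sec61a1 probe set was called lower in both genotypes (-1.0 and -0.81). Ssr1, a subunit of the channel-associated TRAP complex, rose by 0.53 and 0.36, and Sec24d, which selects cargo for vesicles that leave the ER, rose by 0.65 and 0.31. The rise of Ssr1 in Batf-/- cells (limma adjusted p 0.0297) was lost without any 1 of the 4 Batf-/- day 3 arrays (adjusted p 0.0503 to 0.0567), without Batf-/- naive replicate 2 (0.22, adjusted p 0.154) and without Batf-/- naive replicate 3 (0.29, adjusted p 0.117). That of Sec24d was lost without Batf-/- naive replicate 2 (0.17, adjusted p 0.0976) or Batf-/- day 3 replicate 4 (0.28, adjusted p 0.0546).

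The Atf4 branch held the largest change, that of Trib3, and 4 of its 5 genes rose in both genotypes. Trib3, a pseudokinase induced by Atf4 and CHOP, had log2 intensities of 4.95 and 5.07 in wild-type naive, 6.09, 5.18 and 5.44 in Batf-/- naive, 9.26, 8.86, 9.07 and 8.51 in wild-type day 3 and 9.0, 9.09, 9.33 and 9.12 in Batf-/- day 3 arrays. All day 3 arrays were far above all naive arrays. The change was 3.91 ± 0.23 (SE, 15.1-fold, limma adjusted p 1.68e-08) in wild-type and 3.56 ± 0.20 (11.8-fold, limma adjusted p 1.07e-08) in Batf-/- cells. Its other probe set rose by 2.64 and 2.78.

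Atf4 was at 10.88 and 10.83 in wild-type naive, 10.76, 10.72 and 10.72 in Batf-/- naive, 11.33, 11.30, 11.41 and 11.04 in wild-type day 3 and 11.12, 11.18, 11.32 and 11.25 in Batf-/- day 3 arrays. Naive and day 3 arrays did not overlap in either genotype. It rose by 0.41 ± 0.094 (SE, limma adjusted p 0.00245) and 0.49 ± 0.083 (0.000257). Ddit3, which encodes CHOP, was at 8.22 and 8.2, at 8.01, 8.13 and 8.18, at 9.26, 9.12, 9.23 and 8.92, and at 8.86, 8.87, 9.03 and 9.05 in the same order of groups. Every day 3 array was above every naive array. Ddit3 rose by 0.92 ± 0.099 (SE, limma adjusted p 4.15e-06) and 0.84 ± 0.087 (2.83e-06). Its other, dimmer probe set changed by -0.19 in wild-type cells and was called lower in Batf-/- cells (-0.65), and with the mean of both sets the Batf-/- change was 0.10 (limma adjusted p 0.548).

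Chac1, which degrades glutathione, was at 3.99 and 4.05 in wild-type naive and 4.49, 4.28 and 4.53 in Batf-/- naive arrays. At day 3 it was at 5.32, 5.27, 5.43 and 5.05 in wild-type and 4.80, 5.31, 5.42 and 5.54 in Batf-/- cells. It rose by 1.24 ± 0.17 (SE, limma adjusted p 3.38e-05) and 0.83 ± 0.15 (0.000347). Its wild-type naive mean, 4.02, lay within the dimmest 40% of probe set means (log2 below 4.35), so its change from there is measured from near the background.

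Ppp1r15a (Gadd34), which recruits a phosphatase to eIF2 alpha and so ends the response, went the other way from the rest of its branch. It was at 9.34 and 9.18 in wild-type naive, 9.11, 9.38 and 9.07 in Batf-/- naive, 7.68, 7.64, 7.71 and 7.33 in wild-type day 3 and 7.63, 7.42, 7.55 and 7.53 in Batf-/- day 3 arrays. The groups of each genotype did not overlap. The change was -1.68 ± 0.12 (SE, 3.19-fold lower, limma adjusted p 9.49e-08) and -1.65 ± 0.10 (limma adjusted p 2.79e-08). Wfs1, a membrane protein of ER calcium handling, rose by 0.32 ± 0.12 in wild-type cells (limma adjusted p 0.0454) and had a change of 0.22 in Batf-/- cells (0.114; 0.0468 without Batf-/- naive replicate 3). Its call was lost in 11 of the alternatives run and without wild-type naive replicate 1 its change was 0.10 (limma adjusted p 0.587).

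**Figure D2:**
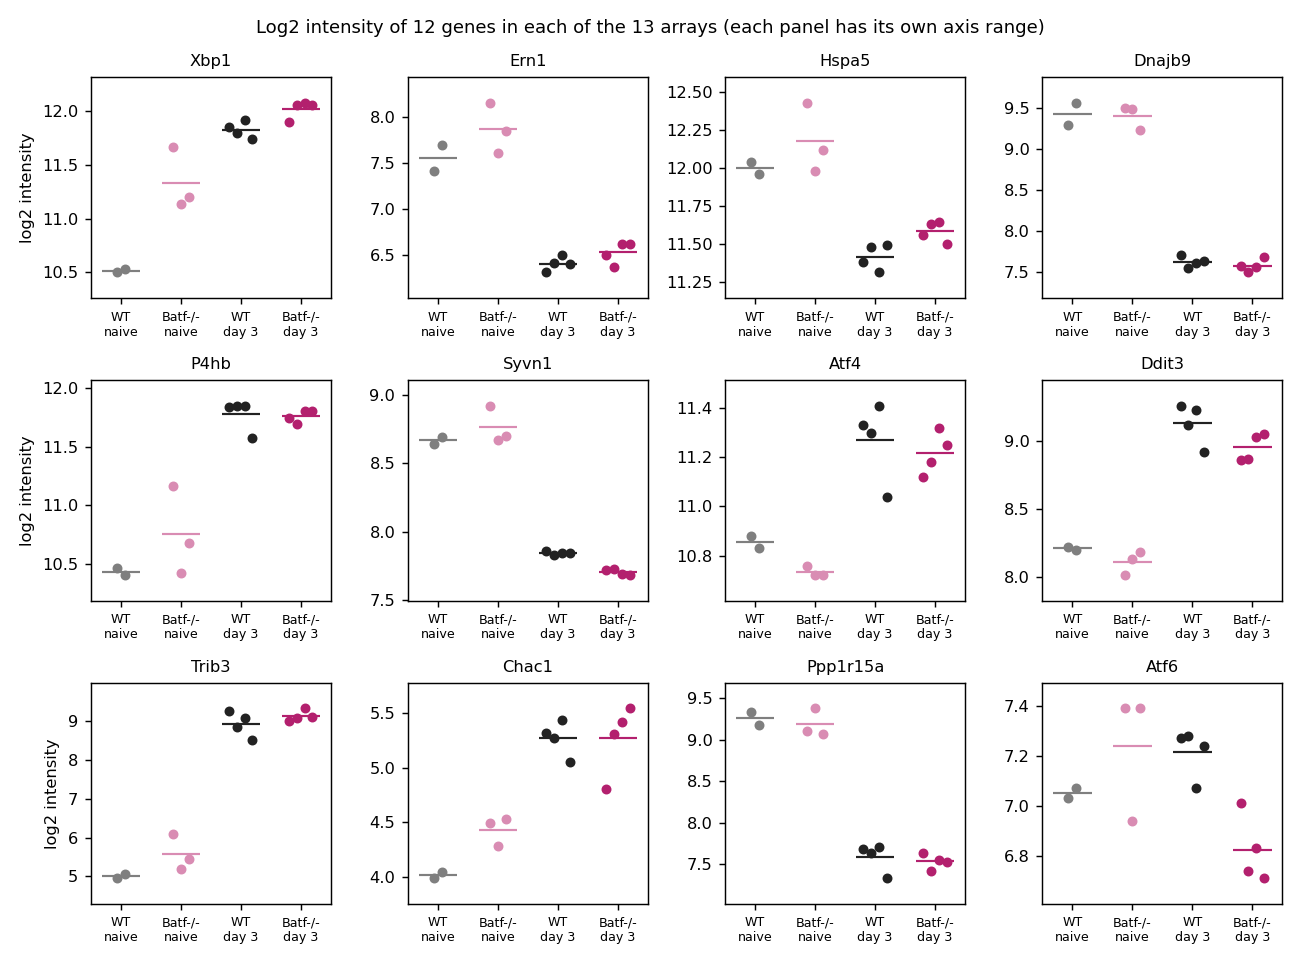
Log2 intensity of 12 of the genes on each of the 13 arrays, grouped by genotype and state; each point is 1 array and each horizontal bar a group mean, and each panel has its own vertical scale. Trib3, P4hb and Xbp1 are higher at day 3 than in naive cells in both genotypes, and Dnajb9, Ppp1r15a, Ern1, Syvn1 and Hspa5 are lower.

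The members with an ERSE were set beside those without, as counts. Of the 8 members with the motif, Hsp90b1 and Canx rose in wild-type cells, Hspa5, Dnajc3, Calr and Syvn1 fell, and Pdia6 and Creld2 did not pass, with changes from -0.82 to 0.39. In Batf-/- cells 0 of the 8 rose, 5 fell and 3 did not pass, with changes from -1.06 to 0.21. These counts use the brightest probe sets, and Hsp90b1 passed there with the mean of its probe sets (0.30, limma adjusted p 0.0351). Of the 21 members with a promoter and no ERSE in this window, 12 rose, 5 fell and 4 did not pass in wild-type cells, and 9 rose, 7 fell and 5 did not pass in Batf-/- cells. Over all genes 22.4% rose and 23% fell in wild-type cells, and 23.8% rose and 23.2% fell in Batf-/- cells. The difference between the members with and without an ERSE was not tested.

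Of the 5 plasma cell markers 3 (Jchain, Mzb1 and Tnfrsf17) fell with stimulation in wild-type cells and 4, with Derl3, in Batf-/- cells. The change of Sdc1 was 0.24 and -0.07, and that of Derl3 in wild-type cells 0.06, without passing. Jchain was at 12.39 and 12.78 in wild-type naive and between 13.01 and 13.33 in Batf-/- naive arrays, and at day 3 it lay between 3.54 and 3.80 in wild-type and between 3.85 and 4.22 in Batf-/- cells. Mzb1, itself an ER protein, changed by -4.59 and -4.54. Plasma cells are rich in ER folding genes, as stated above. Over the same arrays 11 members fell and 14 rose in wild-type cells, and 15 fell and 9 rose in Batf-/- cells. The part of plasma cell RNA in these changes was not tested, and the directions alone cannot give it.

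At day 3 the difference between genotypes passed the test for 0 of the 34 members, whereas 1.37% of all genes did (0.665% higher and 0.709% lower, limma, adjusted p below 0.05). At an unadjusted p below 0.05 there were 7 members (20.6%, against 12.6% of all genes). Differences between Batf-/- and wild-type cells ran from -0.39 for Atf6 to 0.21 for Trib3, with a median of 0.04 against 0.01 over all genes. Their 95% intervals all lay within 1 log2 unit of 0, and 31 of the 34 lay within 0.5. The lowest bound was -0.61 for Atf6 and the highest 0.61 for Trib3, so larger differences lie outside the intervals of these arrays. Groups of 4 arrays did not overlap for 10 members, 7 with Batf-/- higher and 3 with Batf-/- lower, against 12.8% of all genes (7.44% higher and 5.34% lower).

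Atf6 had the largest difference. It was at 7.27, 7.28, 7.07 and 7.24 in the wild-type and at 7.01, 6.74, 6.83 and 6.71 in the Batf-/- day 3 arrays, and the groups did not overlap. The difference was -0.39 ± 0.10 (SE, n = 4 and 4, limma adjusted p 0.0904), with values from -0.39 to -0.19 over its 3 probe sets. It passed in the fit of the day 3 arrays alone (adjusted p 0.0215), with array weights (-0.42, adjusted p 0.00688) and without Batf-/- naive replicate 2 (adjusted p 0.0202). Atf6 was shown by array after its values were seen.

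The other members differed less. Sel1l differed by -0.20 ± 0.062 (SE, limma adjusted p 0.161), Dnajb11 by 0.18 ± 0.059 (0.198) and Ddit3 by -0.18 ± 0.080 (0.377). Xbp1 and Hspa5 differed by 0.19 ± 0.099 (limma adjusted p 0.464) and 0.17 ± 0.087 (0.467), and Atf4 by -0.05. A difference that misses the threshold does not show equal levels.

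**Figure D3:**
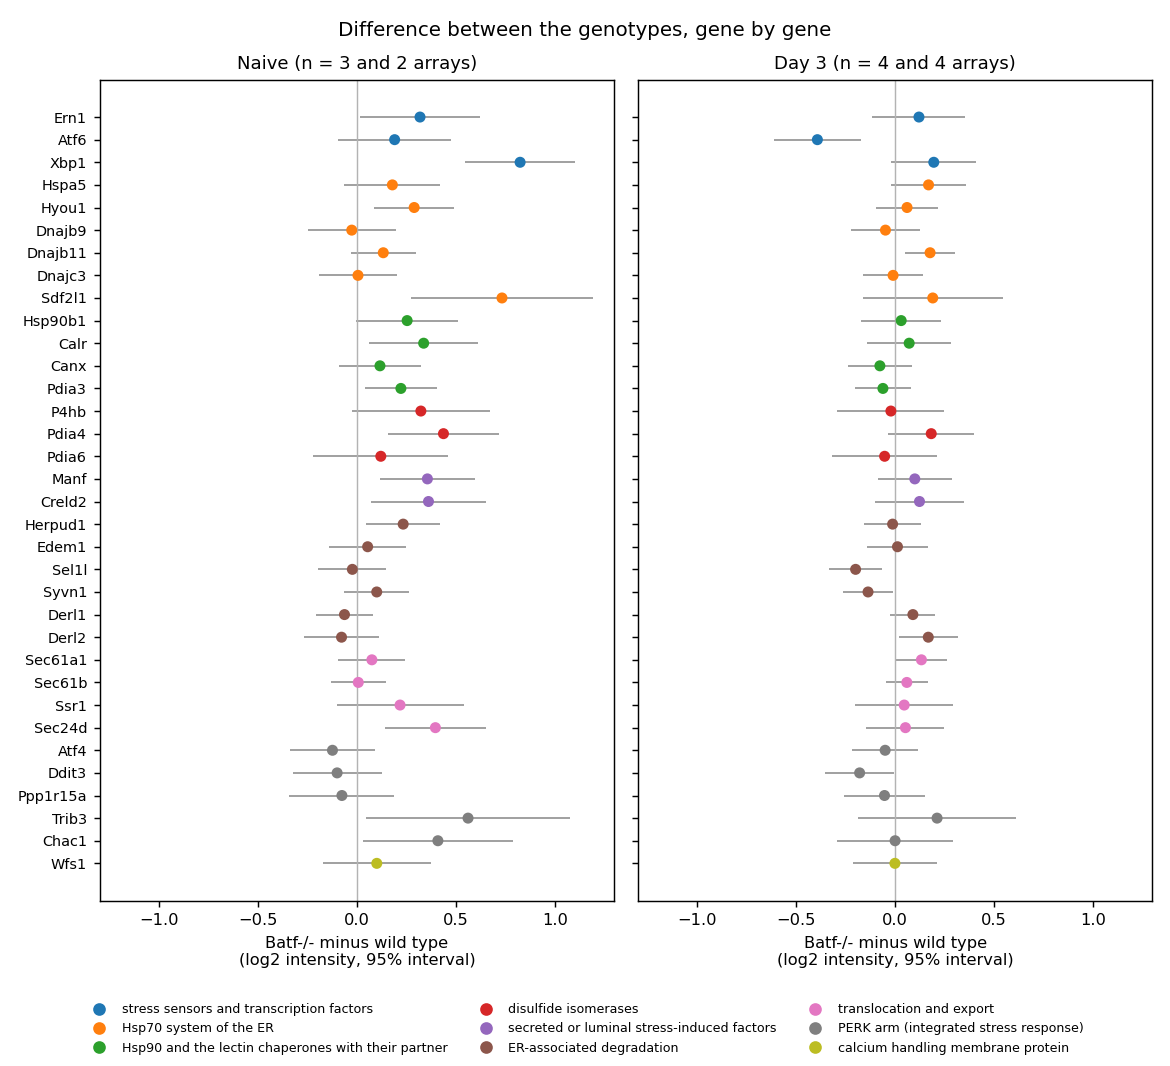
Difference of mean log2 intensity, Batf-/- minus wild type, of the 34 genes in naive cells (left) and at day 3 (right), with 95% intervals; colours are roles and the vertical line marks 0. At day 3 the values lie between -0.39 and 0.21, and in naive cells 27 of 34 lie above 0 with Xbp1, at 0.82, highest.

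In naive cells Xbp1 was higher without Batf, and it was the single member that passed (2.94% of the members, against 1.08% of all genes, 0.813% higher and 0.264% lower). Its log2 intensities were 10.50 and 10.53 on the wild-type and 11.67, 11.14 and 11.20 on the Batf-/- arrays, and the groups did not overlap. The difference was 0.82 ± 0.13 (SE, 1.77-fold, n = 3 and 2, limma adjusted p 0.00738). The 4 Xbp1 probe sets gave 0.54 to 0.82, and the other 3 did not pass among all probe sets. Without Batf-/- naive replicate 1, the array with neutrophil RNA, it was 0.66 (limma adjusted p 0.00237). The call was lost without wild-type naive replicate 1 (0.81, adjusted p 0.059) or 2 (0.84, adjusted p 0.0589), where 1 wild-type array is left and is taken to vary like the other groups, and in the fit of the naive arrays alone (0.82, adjusted p 0.578), which called 1 gene in all.

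The other 33 members did not pass, and 26 of them had positive differences. Their largest were 0.73 ± 0.21 for Sdf2l1 (SE, limma adjusted p 0.148), 0.56 ± 0.24 for Trib3 (0.322) and 0.44 ± 0.13 for Pdia4 (0.157). Sec24d had 0.40, Creld2 and Manf 0.36 each and Calr 0.34. Sel1l had -0.02, but 2 of its other 4 probe sets were called higher (0.66 and 0.84). The median over all 34 was 0.18, against 8.5e-05 over all genes. At an unadjusted p below 0.05 there were 13 (38.2%, against 13.6% of all genes), and the groups did not overlap for 16 members (24.5% of all genes), 13 of them with Batf-/- higher (11.8% of all genes) and 3 with it lower (12.7%). The interval of Sdf2l1 reached 1.19, the highest bound.

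The Batf-/- naive arrays differed among themselves, and the count of members called moved with them. Relative to the wild-type naive mean, the median member was higher by 0.33 on Batf-/- naive replicate 1, by 0.04 on replicate 2 and by 0.25 on replicate 3. Replicate 1 was the highest of the 5 naive arrays for 23 of the 34 members, against 26.2% of all genes, and replicates 2 and 3 for 1 and 4. Without replicate 2 the test called 3.45% of all genes, against 1.08% with it, and 8 members, all higher: Xbp1 (0.92), Sdf2l1 (1.02, adjusted p 0.00164), Pdia4 (0.61, 0.00306), Creld2 (0.54, 0.00354), Sec24d (0.53, 0.00948), Calr (0.49, 0.0207), Manf (0.47, 0.0246) and Pdia6 (0.35, 0.0393). Without replicate 1 it called 1 member and 1.72% of all genes. The median standard deviation of the members was 0.165 among Batf-/- naive arrays and 0.0468 among wild-type naive arrays, and at day 3 it was 0.0779 in wild-type and 0.0662 in Batf-/- cells.

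Other gene lists also differed among the naive arrays, in part in another order than the members. Plasma cell and B cell markers were highest on Batf-/- naive replicate 3, and the members on replicate 1. The mean log2 intensity of the 5 plasma cell markers was 7.57 and 7.66 on the wild-type and 8.14, 7.98 and 8.42 on the Batf-/- naive arrays, and Jchain was at 12.39 and 12.78 against 13.33, 13.01 and 13.20. Of the 5, 1 was called higher (Tnfrsf17, by 1.2, limma adjusted p 0.0319). The 4 NK cell markers averaged 6.79 and 6.64 against 8.48, 7.20 and 7.67, with 1 called higher, and the 9 B cell markers 6.18 and 5.80 against 6.50, 6.44 and 6.82, with 3 called higher. Both lists were above the wild-type arrays on all 3 Batf-/- arrays. Tnfrsf17, the NK cell call Klra8 and the B cell calls Cr2 and Ebf1 had means over all arrays in the dim range. These calls and that of Cd22, the other B cell call, were lost in the fit of the naive arrays alone (limma adjusted p 0.283 to 0.554). The test called 1.08% of all genes in this contrast. Neutrophil markers averaged 6.29 and 5.51 against 9.12, 4.95 and 6.13, and monocyte and macrophage markers 6.32 and 6.25 against 7.66, 6.02 and 6.61, among them Lyz2 with a difference of 1.64 ± 0.52 (SE, limma adjusted p 0.184). The cytosolic and mitochondrial chaperones averaged 10.13 and 10.24 against 10.73, 10.04 and 10.06, and among them heat-inducible Hspa1b was at 4.84 and 6.03 against 8.75, 4.38 and 4.79. The part of these in the naive difference was not tested.

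**Figure D4:**
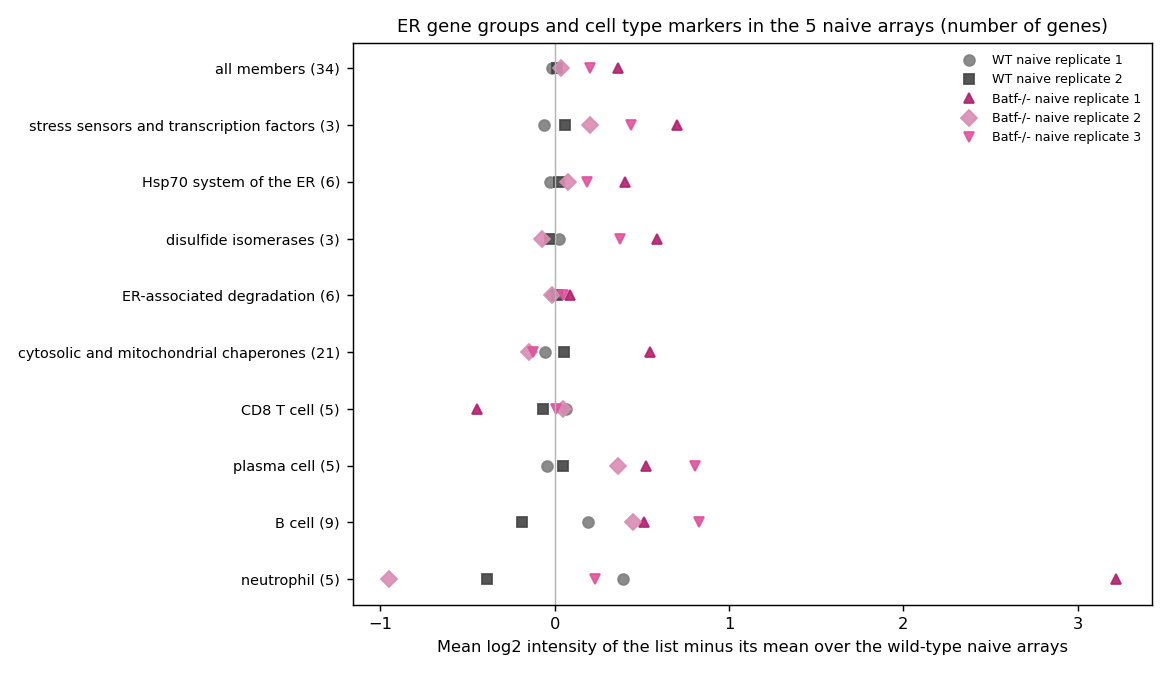
Mean log2 intensity of gene lists and cell type markers on each of the 5 naive arrays, minus the list's mean over the wild-type naive arrays (horizontal axis, log2 units); each symbol is 1 array and the number of genes follows each list's name. Batf-/- naive replicate 1 lies highest in the mean of the 34 genes, in neutrophil markers and in cytosolic and mitochondrial chaperones and lowest in CD8 T cell markers, and all 3 Batf-/- arrays are above both wild-type arrays in plasma cell markers.

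The stimulation change was compared between genotypes directly, and 0 of the 34 members passed (0.649% of all genes did, 0.165% with a positive and 0.484% with a negative value, limma, adjusted p below 0.05), with 7 (20.6%, against 11.9% of all genes) at an unadjusted p below 0.05. The 9 members called in 1 genotype alone are therefore not shown to respond differently. This contrast uses the same arrays as the contrasts above. The change in Batf-/- minus that in wild-type cells was negative for 27 of 34 members, with a median of -0.20 against 0.01 over all genes. Xbp1 had -0.63 ± 0.16 (SE, limma adjusted p 0.117), Atf6 -0.58 ± 0.17 (0.158) and Sdf2l1 -0.54 ± 0.27 (0.459). Of these, Xbp1 and Sdf2l1 differed more between the naive groups than at day 3 (0.82 and 0.73 in naive cells, 0.19 and 0.19 at day 3), and Atf6 more at day 3. Xbp1 passed without Batf-/- naive replicate 1 (-0.47, adjusted p 0.0447), and Xbp1 (-0.73, adjusted p 0.0429), Atf6 (-0.73, adjusted p 0.0166) and Sdf2l1 (-0.83, adjusted p 0.0268) without replicate 2.

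Other genes of the pathway were read from lists outside the 34. For the counts of these lists, the shares over all genes with stimulation were 22.4% higher and 23% lower in wild-type cells. In Batf-/- cells they were 23.8% higher and 23.2% lower. Of 14 sensors and partners, 2 rose and 10 fell with stimulation in each genotype. Eif2ak3, which encodes Perk, was at 8.90 and 8.91 in wild-type naive, 8.82, 8.99 and 8.93 in Batf-/- naive, 9.74, 9.77, 9.67 and 9.73 in wild-type day 3 and 9.43, 9.36, 9.36 and 9.41 in Batf-/- day 3 arrays. The genotypes overlapped in naive cells and were apart at day 3. It rose by 0.82 ± 0.064 (SE, limma adjusted p 2.75e-07) in wild-type and by 0.48 ± 0.057 (1.1e-05) in Batf-/- cells. At day 3 it was lower in Batf-/- cells by a log2 difference of -0.34 ± 0.053 (1.27-fold, limma adjusted p 0.00622), a call kept in 20 of 21 alternatives and lost with the mean of its 3 probe sets (-0.22, adjusted p 0.192). The difference between the genotypes' changes was -0.35 ± 0.086 (limma adjusted p 0.106). Nfe2l2, a further Perk substrate, fell by 0.97 and 0.61, Mbtps1, the protease that cleaves Atf6, fell by 0.80 and 0.66, and Atf6b, the paralogue of Atf6, fell by 0.69 and 0.53.

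Of 20 targets of the integrated stress response, the programme that runs through Atf4, 15 rose and 0 fell in each genotype. Vldlr rose most, to means of 8.76 and 8.85 from naive means of 3.95 and 4.34, which lay in the dim range below 4.35, so its changes of 4.81 and 4.51 are measured from near the background. The mTOR inhibitor Ddit4 rose by 2.18 and 2.04, and Psat1, an enzyme of serine synthesis, by 2.12 and 1.85. The list's median change was 0.65 and 0.53. Cth, which makes cysteine, was the 1 target that differed at day 3, by -0.63 ± 0.12 in Batf-/- cells (SE, limma adjusted p 0.0217). It was at 4.51, 4.13, 4.19 and 3.94 in wild-type and 3.54, 3.84, 3.49 and 3.39 in Batf-/- cells, and its mean lay in the dim range in all 4 groups. The call was kept in 14 of 20 alternatives, being lost without wild-type day 3 replicate 1, 2 or 3 and without Batf-/- day 3 replicate 1, 3 or 4 (-0.65 to -0.52, adjusted p 0.0536 to 0.0826).

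Of 17 further ER folding enzymes, 6 rose and 6 fell in wild-type and 6 rose and 7 fell in Batf-/- cells. Ero1a, the oxidase that recharges P4hb, rose by 3.95 and 3.58, and Prdx4, a peroxidase that does the same with peroxide, by 2.28 and 1.72. Mogs, the glucosidase that starts glycan trimming, fell by 1.16 and 0.75. Txndc5 and Ero1b, a disulfide isomerase and the oxidase paralogue that are both abundant in secretory cells, were higher in Batf-/- naive cells by 0.89 ± 0.15 (SE, limma adjusted p 0.0142) and 0.52 ± 0.082 (0.00821). Txndc5 was at 8.97 and 9.07 in wild-type and 10.02, 9.51 and 10.22 in Batf-/- naive arrays, where plasma cell markers were also higher, as given above. Its call was lost without wild-type naive replicate 1 (0.84) or 2 (0.95), and that of Ero1b without wild-type naive replicate 2 (0.50). Both calls were lost in the fit of the naive arrays alone (limma adjusted p 0.64 for Txndc5 and 0.549 for Ero1b). That of Txndc5 was also lost with the replicate block (0.85, limma adjusted p 0.075). Ero1b was the 1 gene of all these lists whose stimulation change differed between genotypes (-0.67 ± 0.10, limma adjusted p 0.0118), a call lost without wild-type naive replicate 2 (-0.65, adjusted p 0.0511).

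Genes of protein entry, degradation and export, and the chaperones outside the ER, held calls in both directions. The share that passed in wild-type and Batf-/- cells was 42.9% and 47.6% for entry and 47.6% and 52.4% for the chaperones. It was 52.9% and 64.7% for degradation and 66.7% in both for vesicles. Over all genes it was 45.4% and 47%, and without the dimmest 40% of probe sets 61.5% and 62.9%. Of 21 genes of entry, signal peptidase and glycosylation, 4 rose and 5 fell in wild-type and 5 rose and 5 fell in Batf-/- cells, with Ssr3, a TRAP subunit like Ssr1, higher by 1.13 and 0.87. Of 17 further degradation genes, 2 rose and 7 fell, and 4 rose and 7 fell, with Selenos, a partner of the Hrd1 complex, lower by a change of -0.78 and -0.68. Of 18 genes of vesicles between ER and Golgi, 7 rose and 5 fell in each genotype. Kdelr1, the receptor that returns ER proteins from the Golgi, rose by 0.82 and 0.77, and the coat subunit Sec23a by 0.75 and 0.61, and the coat scaffold Sec16a fell by 0.78 and 0.67. Of 21 cytosolic and mitochondrial chaperones, 4 rose and 6 fell in wild-type and 4 rose and 7 fell in Batf-/- cells, among them Tcp1, a subunit of the chaperonin of the cytosol, at 0.85 and 0.77, and Hsph1, an Hsp70 exchange factor, at -1.13 and -0.97. In the lists of entry, degradation, vesicles and chaperones 0 genes passed in either genotype contrast or in the difference of changes.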

How the data were processed

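Total RNA was hybridised to 13 single-colour arrays. The authors deposited RMA values (per the submitters' processing notes, which name RMA without a version) as linear intensities from 3.25 to 27465 over 45101 probe sets, per the file header and values. The log2 of these intensities was computed here. Of the probe sets 34958 have 1 gene symbol, 932 have several and 9211 have none in the platform annotation; 18194 genes entered the fit, each by its probe set of highest mean. limma 3.58.1 in R 4.3.3 fitted 4 group means to all 13 arrays (lmFit, eBayes; 9 residual and 3.7 prior degrees of freedom), with 2-sided tests and Benjamini-Hochberg adjustment over all genes at 0.05. The number of arrays limits the precision. Scripts were tested on simulated data. Arrays of 0 pairs were identical. The members and lists were chosen with earlier results of these data known. Values in every array are given for members that pass in a genotype contrast, for the 6 largest changes among those called in each stimulation contrast, and for Xbp1, Hspa5, Atf4 and Ddit3. Other lists are given by counts and at most 3 genes per direction; 10 list genes had no matched row. Alternatives changed the normalisation, the filter on dim probe sets, the choice of probe set, an offset of 16, array weights, the arrays in the fit and a replicate block, and left out each array in turn. Promoters came from RefSeq GRCm38.p6.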

Additional observations from a re-analysis of the deposited data

Results flagged for a closer look

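In 3 cases a group of 4 day 3 arrays held 1 array far from the other 3, by the gap to its neighbour as a share of the group's range. P4hb was at 11.57 in wild-type day 3 replicate 4, against 11.84 for the next array. Xbp1 was at 11.9 in Batf-/- day 3 replicate 1, against 12.06. Pdia4 was at 9.39 in Batf-/- day 3 replicate 1, against 9.20. These are 3 of 68 groups of 4 tested, and chance marks about 1 in 20.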

How the results depend on the processing

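At day 3 the count of members that differed between genotypes, 0, became 3 with array quality weights and 1 in the fit of the compared groups alone, and ran from 0 to 1 over fits leaving out 1 array. In naive cells the count, 1, became 3 when each gene's probe sets were averaged, 3 with array quality weights, 0 with the replicate block and 0 in the compared groups alone, and ran from 0 to 8 leaving out 1 array. The count for the difference of stimulation changes, 0, became 2 with array quality weights and ran from 0 to 3. With array quality weights 7.18% of all genes were called at day 3, against 1.37%. The stimulation counts were 22 to 28 in both genotypes over the alternatives, against 25 and 24. The naive difference of Sel1l reversed when its probe sets were averaged (0.36, limma adjusted p 0.049, against -0.02). Across all alternatives 31, 25, 26, 24 and 31 of the 34 member values kept their side of the threshold, for day 3, naive, wild-type stimulation, Batf-/- stimulation and the difference of changes. Arrays of the 2 genotypes with the same replicate number had deviations with correlations of -0.243 and -0.258 in naive cells and -0.0909, -0.0749, 0.0394 and -0.0858 at day 3. With 2 wild-type naive arrays their deviations mirror each other, and arrays were not compared across days. The check therefore cannot decide whether the numbers pair the arrays. With the replicate block as a term Xbp1 in naive cells was 0.83 (limma adjusted p 0.0501). The called members were then 0 at day 3, 0 in naive cells, 22 and 24 with stimulation and 0 for the difference. For dim genes such as Chac1 the signal over background limits what a change can show.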
